A study of Rattus norvegicus with 30 samples.

Results

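A set of 10 genes of the spermatogonial stem cell and its niche were followed in rat testis during the first wave of spermatogenesis and in organotypic culture: Gdnf, Gfra1, Ret, Etv5, Lhx1, Id4, Nanos2, Lin28a, Zbtb16 and Sall4. The members were chosen by name as known stem cell and niche genes, and 9 of the 10 were found by Entrez identifier among the 17322 genes of the expression file. Sall4 was not analysed here. Testes of Wistar Han rats were sampled in vivo at 6 ages, from the prepubertal 8.5 and 14.5 days postpartum (dpp) through 24.5 and 30.5 dpp to 36.5 dpp and, as the oldest, 53.5 dpp. Explants cut from 8.5 dpp testes of the same strain were kept at a gas-liquid interphase on agarose for 6 (D6), 16 (D16), 22 (D22) or 28 days (D28), in αMEM with Knock-out serum replacement, retinol and vitamin E on gels soaked in medium with gentamicin, so that no explant in the series was free of these additives. D6 corresponded in age to 14.5 dpp, D16 to 24.5 dpp, D22 to 30.5 dpp and D28 to 36.5 dpp. Each group held 3 libraries, except 14.5 dpp with 2, and the explant libraries pooled fragments of several males after the central necrotic area had been removed.

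Glial cell line-derived neurotrophic factor, encoded by Gdnf, is secreted in the testis mainly by Sertoli cells and peritubular myoid cells. It binds the membrane-anchored co-receptor GFRA1 on undifferentiated spermatogonia, and the complex signals through the receptor tyrosine kinase RET. Signalling through this complex keeps stem cells self-renewing and raises a group of transcription factors that includes Etv5, Lhx1 and Id4, while Nanos2, Lin28a and Zbtb16 act inside the cell to restrain differentiation or to mark the undifferentiated state. Undifferentiated spermatogonia are a small minority of the cells of an adult testis, whereas in a prepubertal testis, with few later germ cells, spermatogonia and Sertoli cells make up much of the tubule.

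Promoter windows of the ligand, its receptor pair and Id4 are shown because the first 3 followed each other across the groups and Id4 ran opposite to them. Each window spans 250 bases before to 50 bases after the RefSeq transcription start on GRCr8, read on the strand of the gene, and capitals mark matches to the motifs searched. Gdnf lies at chr2:58621077-58621376 on the plus strand, Gfra1 at chr1:267555762-267556061 on the minus strand, Ret at chr4:153040507-153040806 on the minus strand and Id4 at chr17:16598244-16598543 on the minus strand.
Gdnf: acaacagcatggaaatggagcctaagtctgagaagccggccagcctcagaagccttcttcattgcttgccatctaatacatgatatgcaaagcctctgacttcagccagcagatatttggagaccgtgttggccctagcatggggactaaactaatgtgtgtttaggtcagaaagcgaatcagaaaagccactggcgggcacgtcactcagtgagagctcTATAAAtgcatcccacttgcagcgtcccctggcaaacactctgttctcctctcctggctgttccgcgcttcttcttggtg
Gfra1: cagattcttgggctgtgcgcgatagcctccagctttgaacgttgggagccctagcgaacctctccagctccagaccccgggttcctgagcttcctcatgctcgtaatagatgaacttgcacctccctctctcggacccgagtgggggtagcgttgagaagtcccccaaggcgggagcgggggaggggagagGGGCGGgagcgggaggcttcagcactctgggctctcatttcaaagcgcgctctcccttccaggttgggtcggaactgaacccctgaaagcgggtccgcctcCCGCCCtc
Ret: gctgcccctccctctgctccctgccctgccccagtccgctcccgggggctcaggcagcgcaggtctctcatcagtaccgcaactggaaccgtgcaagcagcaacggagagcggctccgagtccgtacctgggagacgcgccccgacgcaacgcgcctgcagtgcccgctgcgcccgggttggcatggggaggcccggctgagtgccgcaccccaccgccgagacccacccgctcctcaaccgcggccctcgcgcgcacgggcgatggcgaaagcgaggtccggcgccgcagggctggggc
Id4: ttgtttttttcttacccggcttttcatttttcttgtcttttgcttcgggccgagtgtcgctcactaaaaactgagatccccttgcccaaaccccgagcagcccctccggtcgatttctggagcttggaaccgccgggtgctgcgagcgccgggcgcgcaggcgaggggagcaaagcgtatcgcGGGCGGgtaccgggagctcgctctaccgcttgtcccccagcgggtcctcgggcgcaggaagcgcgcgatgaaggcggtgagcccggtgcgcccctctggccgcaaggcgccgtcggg

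The motifs searched on both strands were the GC box (GGGCGG), the CCAAT box (CCAAT), the ETS core (CCGGAA), the cyclic AMP response element (TGACGTCA), the E-box (CACGTG) and the TATA box (TATAAA). The Gdnf window held 1 TATA box and a GC content of 50.7%, against a median of 51.7% over all 33469 rat promoter windows. The Gfra1 window held 2 GC boxes, the Id4 window held 1 and the Ret window, at 74% GC, held no match to the 6 motifs. A GC box was present in 33.1%, a CCAAT box in 37.5%, an ETS core in 15%, a cyclic AMP response element in 1.83%, an E-box in 6.42% and a TATA box in 14.2% of all windows. These matches describe letters in a window. Windows were found for 8 of the 9 genes, and Zbtb16 had no entry in the table used.

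The values were FPKM, that is fragments scaled to the length of the gene and the depth of the library, and libraries had between 12520 and 13563 genes above 0. A gene was tested where its median reached 0.5 FPKM in a group compared, and was called where the adjusted p from limma was at most 0.05 and the ratio of medians was at least 2 in either direction. Fold changes are differences of log2(FPKM + 1), which understate the change of genes near or below 1 FPKM. The p-values measure the spread between these libraries. In bulk tissue, fewer cells of a type and less RNA per cell cannot be told apart. The third library of 14.5 dpp, labelled an outlier, was listed at 0 for all genes and was left out. The other two testes of that age differed in their germ cell content by markers: the summed level of 6 spermatocyte markers was 14.7 FPKM in the first and 80.0 FPKM in the second. The summed level of 4 spermatid markers ranged from 2680 to 4134 FPKM at 36.5 dpp and from 11223 to 16706 FPKM at 53.5 dpp, against 3.56 to 4.23 FPKM at D28, where Acrv1, Prm1 and Tnp1 were at 0.

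Gdnf was high in the young testis and fell with age in vivo, and in the explants it was near or above the young level by value. At 8.5 dpp the 3 libraries held 6.92, 5.71 and 6.12 FPKM, and at 14.5 dpp the values were 6.48 and 5.33 FPKM. At 24.5 dpp they were 2.22, 2.48 and 3.14 FPKM. All 24.5 dpp testes were below all younger ones, and the change from 14.5 dpp was -0.94 ± 0.17 (log2, SE; adjusted p = 0.00656). The level fell again by 30.5 dpp, to 1.19, 0.939 and 0.609 FPKM (log2 change -0.92 ± 0.16, adjusted p = 0.0023). The values of 0.789, 0.249 and 0.657 FPKM at 36.5 dpp overlapped those of 30.5 dpp, and at 53.5 dpp the level was 0.427, 0.346 and 0.336 FPKM. Neither of the last 2 steps passed the test. The order of the means from 8.5 to 53.5 dpp was thus one of decrease, with the neighbours 8.5 and 14.5 dpp, 30.5 and 36.5 dpp, and 36.5 and 53.5 dpp not separated.

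In culture, Gdnf stood at 5.19, 6.25 and 4.80 FPKM on day 6 and at 8.10, 10.1 and 10.6 FPKM on day 16. It was then 8.68, 9.48 and 8.55 FPKM at D22 and 8.77, 11.6 and 8.49 FPKM at D28. All libraries of D16, D22 and D28 exceeded every in vivo library of any age. Against the age-matched testes, the log2 difference was 1.55 ± 0.14 at D16 (ratio of medians 4.07, adjusted p = 9.5e-05), 2.38 ± 0.13 at D22 (9.24, adjusted p = 3.2e-06) and 2.77 ± 0.18 at D28 (13.3, adjusted p = 3.8e-06). At D6 it did not differ detectably from 14.5 dpp (-0.11, 95% interval -0.48 to 0.26). Against 14.5 dpp the medians at D16, D22 and D28 were 1.71, 1.47 and 1.48 times as high (adjusted p of the F test over the 3 times = 0.0317), which is under the 2-fold threshold.

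Gfra1, the co-receptor that binds the ligand, had its lowest level at 30.5 dpp and higher values at the 2 later ages. The values were 5.18, 6.36 and 6.20 FPKM at 8.5 dpp, 5.99 and 4.15 FPKM at 14.5 dpp, and 1.55, 1.37 and 1.86 FPKM at 24.5 dpp. They reached 0.748, 0.706 and 0.675 FPKM at 30.5 dpp, then 1.79, 1.90 and 1.17 FPKM at 36.5 dpp and 2.68, 3.52 and 2.11 FPKM at 53.5 dpp. Groups did not overlap at any step after 14.5 dpp. Gfra1 fell from 14.5 to 24.5 dpp (log2 change -1.21 ± 0.19, adjusted p = 0.00386) and from 24.5 to 30.5 dpp (-0.60 ± 0.12, adjusted p = 0.00405), and rose from 30.5 to 36.5 dpp (0.61 ± 0.13, ratio of medians 2.54, adjusted p = 0.0221). The rise was lost in 5 of the 6 fits that left out 1 library, where adjusted p reached 0.0828. In those 5 fits the calls over all genes went from 846 to between 8 and 599, and the Gfra1 estimate stayed between 0.53 and 0.74. From 36.5 to 53.5 dpp the change of 0.52 ± 0.17 had an adjusted p of 0.0448 with a ratio of medians of 1.50, under the 2-fold threshold. After median-of-ratios scaling, which sets the median gene of each library equal, it was 0.91 and was called (adjusted p = 0.0232).

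The explants held Gfra1 at 4.26, 4.86 and 4.69 FPKM at D6, 4.65, 5.24 and 5.19 FPKM at D16, 6.23, 6.19 and 6.26 FPKM at D22, then 5.37, 5.80 and 6.61 FPKM at D28. Against age-matched testes it was higher by 1.22 ± 0.10 at D16 (adjusted p = 7.6e-05), 2.08 ± 0.08 at D22 (adjusted p = 8.2e-07) and 1.41 ± 0.14 at D28 (adjusted p = 4.8e-05). Against 14.5 dpp no difference was detectable (adjusted p of the F test = 0.212), with a 95% interval for D28 of -0.09 to 0.50. All D6 libraries lay below all 8.5 dpp testes (-0.30, adjusted p = 0.0426, under the 2-fold threshold), whereas at D28 the difference from 8.5 dpp was 0.00.

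Ret, the signalling receptor, also fell at both steps between 14.5 and 30.5 dpp, and no later step was called. It measured 4.27, 4.84 and 5.07 FPKM at 8.5 dpp, 5.54 and 3.96 FPKM at 14.5 dpp, 1.35, 1.48 and 1.96 FPKM at 24.5 dpp and 0.699, 0.720 and 0.788 FPKM at 30.5 dpp. At 36.5 dpp the values were 1.40, 0.998 and 0.959 FPKM and at 53.5 dpp they were 0.583, 0.839 and 0.891 FPKM. The fall from 14.5 to 24.5 dpp was -1.14 ± 0.19 (adjusted p = 0.00479) and that from 24.5 to 30.5 dpp was -0.57 ± 0.13 (adjusted p = 0.00645), the latter with a ratio of medians of 0.487 that crossed 0.5 in 3 of the 6 fits that left out 1 library.

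In the explants Ret was 4.94, 5.08 and 4.09 FPKM at D6, and 5.90, 6.96 and 6.35 FPKM at D16. It measured 7.13, 7.67 and 7.55 FPKM at D22, then 6.60, 7.24 and 8.72 FPKM at D28. From D16 on, all explant libraries exceeded all in vivo libraries. The log2 difference from age-matched testes was 1.52 ± 0.12 at D16 (adjusted p = 5.3e-05), 2.28 ± 0.09 at D22 (adjusted p = 6.9e-07) and 2.01 ± 0.14 at D28 (adjusted p = 5.4e-06). Against 14.5 dpp the F test passed (adjusted p = 0.0321) with ratios of medians of 1.34, 1.59 and 1.52, under the 2-fold threshold.

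**Figure D1:**
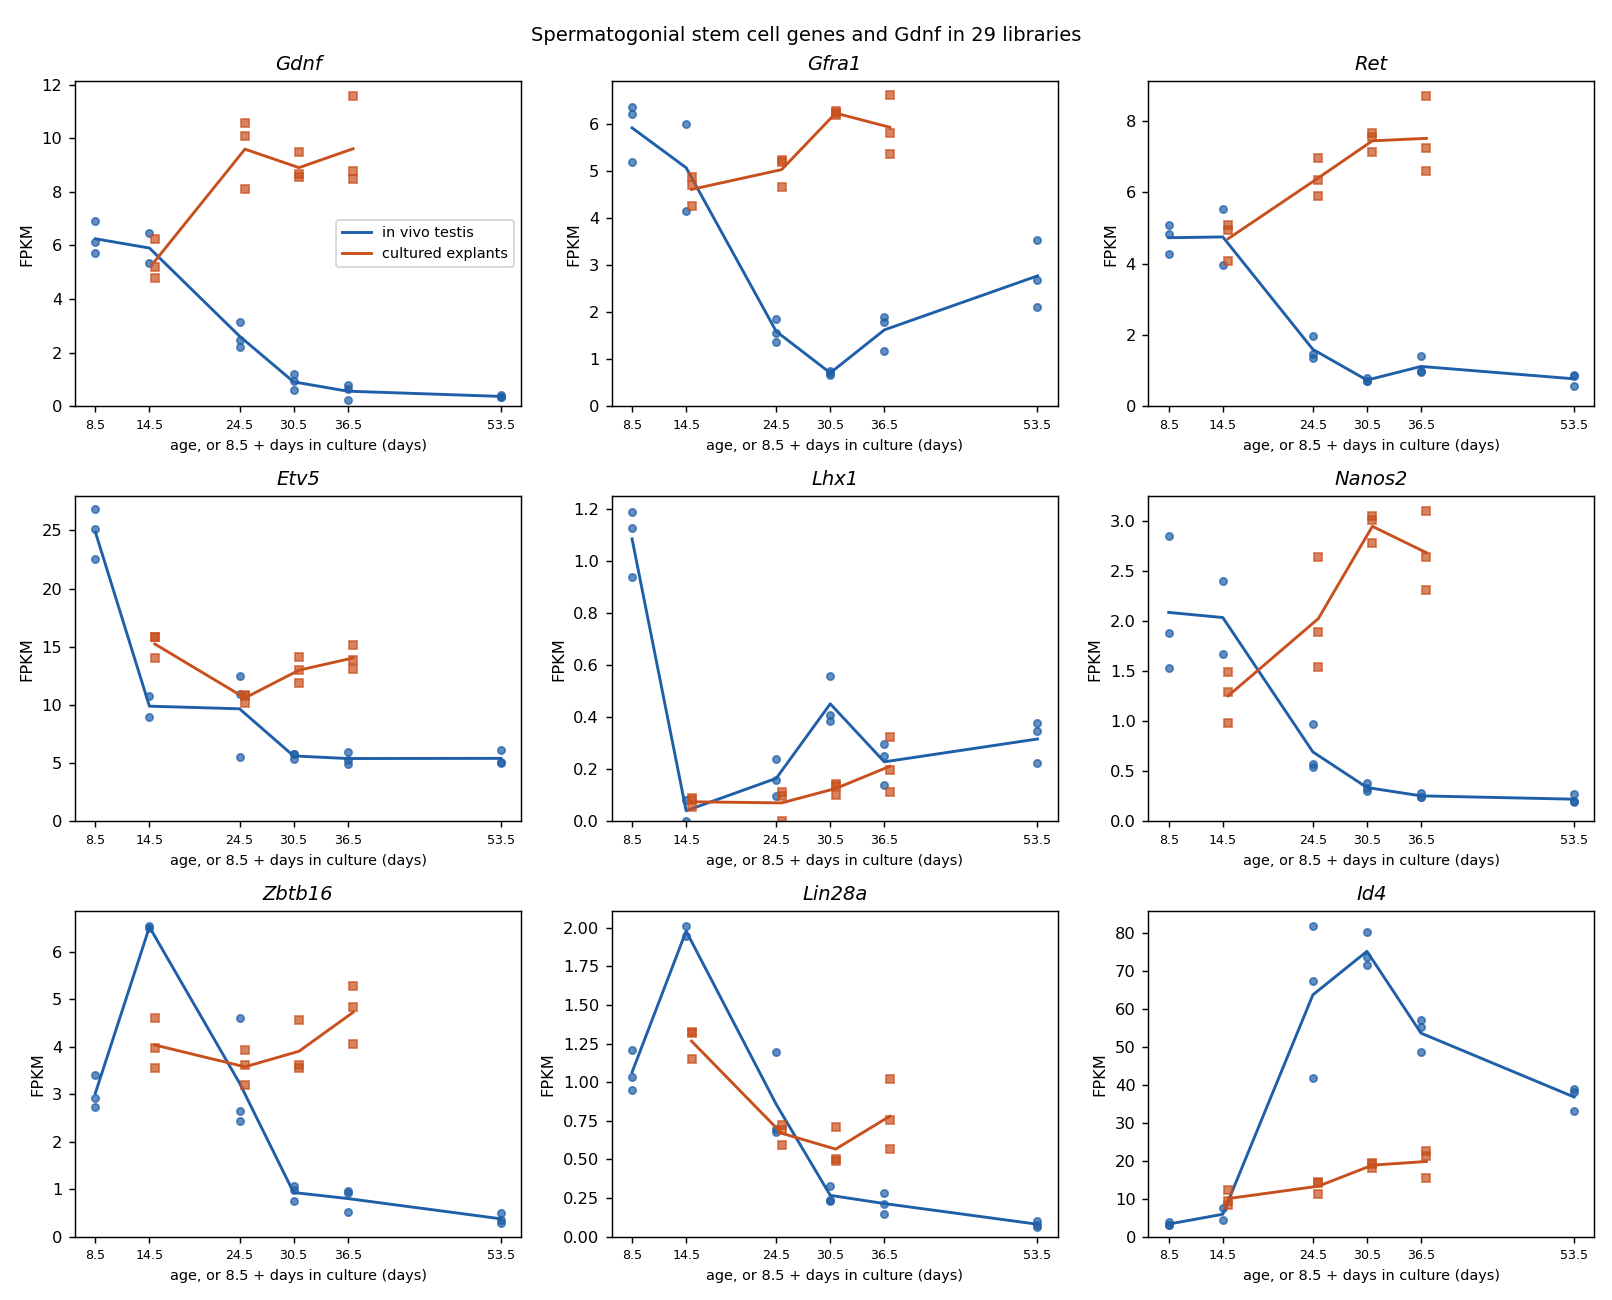
FPKM (vertical axis of each panel, linear from 0) of the 9 genes in 29 libraries against age or, for explants, 8.5 days plus the days in culture; blue circles are in vivo testes, orange squares are explants drawn slightly to the right, and lines join group means. Gdnf, Gfra1, Ret and Nanos2 separate from the in vivo line by D16, while Id4 is the gene whose explants stay below the older testes.

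The ratio of ligand to receptors differed between ages by value. The ratio of Gdnf to Gfra1 within a library was 1.07 ± 0.23 (SD, n = 3) at 8.5 dpp, 1.18 ± 0.14 (n = 2) at 14.5 dpp, 1.65 ± 0.20 at 24.5 dpp, 1.27 ± 0.35 at 30.5 dpp, 0.377 ± 0.22 at 36.5 dpp and 0.139 ± 0.04 at 53.5 dpp. The D6 explants had a ratio of 1.18 ± 0.14, those of D16 1.90 ± 0.15, those of D22 1.43 ± 0.09 and those of D28 1.64 ± 0.35. The ratio of Gfra1 to Ret was 1.25 ± 0.06 at 8.5 dpp, 1.06 ± 0.02 at 14.5 dpp, 1.01 ± 0.12 at 24.5 dpp and 0.969 ± 0.11 at 30.5 dpp, then 1.47 ± 0.38 at 36.5 dpp and 3.72 ± 1.19 at 53.5 dpp. The means of the 4 explant groups lay between 0.786 and 0.989, a range that holds the 30.5 dpp mean. These within-library ratios do not depend on how a library was scaled, and they were not tested.

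Among the transcription factors downstream of the receptor, Etv5, an ETS family factor needed for stem cell maintenance, was highest at 8.5 dpp, at 25.2, 26.9 and 22.6 FPKM. It fell to 10.8 and 8.99 FPKM at 14.5 dpp (log2 change -1.25 ± 0.13, adjusted p = 0.00425), with no overlap. It was 11.0, 12.5 and 5.56 FPKM at 24.5 dpp and between 4.92 and 6.12 FPKM in the 9 older testes. None of these later steps was called with all libraries. Without the third 24.5 dpp testis, the one at 5.56 FPKM, Etv5 was called lower from 24.5 to 30.5 dpp (-0.94 ± 0.12, adjusted p = 0.00238, against -0.62 with it). The explants held 15.9, 15.8 and 14.0 FPKM at D6, 10.8, 10.8 and 10.2 FPKM at D16, 11.9, 14.1 and 13.0 FPKM at D22 and 13.1, 15.1 and 13.9 FPKM at D28. Etv5 was thus lower at D28 than at 8.5 dpp by 0.78 on the log2 scale (ratio of medians 0.552, adjusted p = 0.000966, under the 2-fold threshold) and higher than at 36.5 dpp by 1.23 ± 0.11 (adjusted p = 2.2e-05).

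Lhx1, a LIM homeobox factor induced by GDNF in cultured stem cells, was above 0.5 FPKM in all libraries of the 8.5 dpp testis, at 1.19, 0.940 and 1.13 FPKM. At 14.5 dpp it was listed at 0 and 0.0826 FPKM. It lay between 0.0983 and 0.560 FPKM in the older testes and between 0 and 0.325 FPKM in the explants. Lhx1 fell from 8.5 to 14.5 dpp (-1.0 ± 0.1, adjusted p = 0.00441) and was lower than at 8.5 dpp at D6 (-0.95 ± 0.08, adjusted p = 0.000162) and at D28 (-0.78 ± 0.11, adjusted p = 0.00096). It passed the filter on low values only through 8.5 dpp, where it is high, so that a difference from that group was fixed by the filter, and it was not tested in the other comparisons.

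Id4, an inhibitor of DNA binding whose protein marks stem cells in mouse testis, went the opposite way between 14.5 and 24.5 dpp. It was 2.96, 3.82 and 3.12 FPKM at 8.5 dpp and 4.35 and 7.44 FPKM at 14.5 dpp, the higher value being in the testis with the higher spermatocyte markers. It rose to 67.5, 81.8 and 41.9 FPKM at 24.5 dpp (log2 change 3.22 ± 0.33, ratio of medians 11.5, adjusted p = 0.0013), a level no younger testis approached. The following ages held 80.3, 71.6 and 73.8 FPKM, then 48.6, 57.0 and 55.3 FPKM, and 39.0, 38.2 and 33.2 FPKM at 53.5 dpp. The summed spermatocyte markers ranged from 778 to 802 FPKM at 24.5 dpp, against 9.31 to 46.3 FPKM over the 4 explant groups, and their part in the Id4 level was not tested.

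In the explants Id4 was 12.2, 9.50 and 8.40 FPKM at D6, and 14.1, 11.3 and 14.4 FPKM at D16. It measured 19.0, 19.5 and 18.0 FPKM at D22, then 22.6, 21.3 and 15.5 FPKM at D28. All explant libraries exceeded those of 8.5 and 14.5 dpp and lay below those of 24.5 dpp and later. Id4 was lower than in age-matched testes, with log2 differences of -2.13 ± 0.24 at D16 (adjusted p = 0.000266), -1.94 ± 0.09 at D22 (adjusted p = 1.7e-06) and -1.41 ± 0.16 at D28 (adjusted p = 8.2e-05). It was higher than at 14.5 dpp by 1.08 ± 0.21, 1.56 ± 0.21 and 1.61 ± 0.21 at the same times (adjusted p of the F test = 0.00127). The D16 call was lost without the first 14.5 dpp testis, the one with the lower spermatocyte markers. Id4 also belongs to a gene list that the study chose on these samples, so its direction is not independent evidence. The same holds for Kdr, Insl3, Cyp11a1, Hsd3b1 and Sohlh2, which are used further on as cell type markers.

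Nanos2, an RNA-binding protein that holds germ cells in the undifferentiated state, was low throughout and moved with Ret. It measured 1.53, 1.89 and 2.85 FPKM at 8.5 dpp, 2.40 and 1.67 FPKM at 14.5 dpp, 0.540, 0.573 and 0.972 FPKM at 24.5 dpp, and between 0.193 and 0.382 FPKM in the 9 older testes. It fell from 14.5 to 24.5 dpp (-0.84 ± 0.19, adjusted p = 0.0124). The explants held 1.49, 1.29 and 0.980 FPKM at D6, 1.54, 1.90 and 2.64 FPKM at D16, 3.05, 3.01 and 2.78 FPKM at D22 and 2.64, 2.31 and 3.11 FPKM at D28. All D28 libraries lay above all D6 libraries, and Nanos2 rose between them (0.71 ± 0.13, ratio of medians 2.04, adjusted p = 0.018), a call lost in 4 of the 6 fits without 1 library and with the replicate number as a block (adjusted p = 0.0597).

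Lin28a, an RNA-binding repressor of let-7 maturation, was 1.04, 1.21 and 0.949 FPKM at 8.5 dpp and 1.95 and 2.01 FPKM at 14.5 dpp. At 24.5 dpp it was 0.680, 0.695 and 1.20 FPKM, and by 53.5 dpp 0.0633, 0.102 and 0.0745 FPKM. Its highest group was thus 14.5 dpp. The explants held 1.15, 1.32 and 1.32 FPKM at D6, 0.590, 0.725 and 0.693 FPKM at D16, 0.711, 0.50 and 0.489 FPKM at D22, and 0.567, 1.02 and 0.753 FPKM at D28. Lin28a was lower than at 14.5 dpp at D16, D22 and D28 (-0.84, -0.93 and -0.75, each ± 0.12; adjusted p of the F test = 0.0014), without overlap. It was higher than in the age-matched testis at D22 (0.30 ± 0.10, adjusted p = 0.0223) and D28 (0.55 ± 0.12, adjusted p = 0.00407). In both comparisons it passed the filter only through the explants, the in vivo medians being 0.239 and 0.213 FPKM, so that a higher value there was fixed by the filter. The D22 call was lost in 2 of the 5 fits that left out 1 library and still tested it. Of the 8 genes tested, Lin28a was the one called lower in explants than in the 14.5 dpp testis.

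Zbtb16, which encodes the zinc finger repressor PLZF, also peaked at 14.5 dpp. It rose from 2.93, 3.41 and 2.73 FPKM at 8.5 dpp to 6.54 and 6.50 FPKM (log2 change 0.91 ± 0.11, ratio of medians 2.23, adjusted p = 0.0052). After median-of-ratios scaling the change was 0.74 and under the 2-fold threshold, and relative to the Sertoli markers described further on it was 0.07 (adjusted p = 0.878). At 24.5 dpp it was 2.43, 2.65 and 4.61 FPKM, at 30.5 dpp 0.976, 0.750 and 1.06 FPKM, at 36.5 dpp 0.957, 0.926 and 0.521 FPKM, and at 53.5 dpp 0.492, 0.281 and 0.352 FPKM. The explants stayed between 3.19 and 5.29 FPKM at all 4 times, below the 14.5 dpp pair and above every testis of 30.5 dpp or older. Zbtb16 was 1.34 ± 0.12 higher than the age-matched testis at D22 (adjusted p = 3.3e-05) and 1.67 ± 0.14 higher at D28 (adjusted p = 1.8e-05). Against 14.5 dpp the difference was -0.72, -0.62 and -0.40 at D16, D22 and D28 (adjusted p of the F test = 0.00845), under the 2-fold threshold.

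The third 24.5 dpp testis stood apart from the others of its age for several of these genes. It had the highest Zbtb16, Lin28a, Nanos2, Gdnf, Gfra1 and Ret and the lowest Id4 and Etv5, and its geometric mean of the Sertoli cell markers Sox9, Wt1, Fshr and Cldn11 was 40.2 FPKM, against 26.2 and 27.0 FPKM in the other two. The calls of Zbtb16 and Lin28a between 14.5 and 24.5 dpp had adjusted p of 0.0249 and 0.0174. They were lost in 4 of the 5 fits that left out 1 library. At log2 changes of -1.09 and -0.82, the fit without the testis that stood apart was the 1 that kept these calls. Those of Nanos2 and Gdnf were lost in 1 of 5, without the first 14.5 dpp testis, with adjusted p of 0.0815 and 0.0533.

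Counted over the group, most in vivo calls lay in the steps from 14.5 to 30.5 dpp. Between 8.5 and 14.5 dpp, of the 8 genes that passed the filter in both groups 1 rose (Zbtb16) and 1 fell (Etv5), where 15.7% of all 11253 genes tested were called. Between 14.5 and 24.5 dpp, 6 of the 8 genes tested fell and Id4 rose, where 35.6% of genes were called and 21.1% were called lower; the median log2 change was -0.85 over the members and -0.18 over all genes. Between 24.5 and 30.5 dpp, Gfra1, Ret, Zbtb16 and Gdnf fell, of the 6 genes that passed the filter in both groups, where 39.0% of genes were called and 25.5% called lower. Lin28a was also called lower but passed only through 24.5 dpp. After median-of-ratios scaling only Zbtb16 was still called at that step, and the split of all called genes went from 1553 higher and 2926 lower to 2358 and 519. After 30.5 dpp the calls were few: Gfra1 rose by 36.5 dpp, where 7.54% of genes were called, and Zbtb16, which passed the filter only through the younger group, was called lower by 53.5 dpp (-0.38 ± 0.13, adjusted p = 0.045), where 7.86% were called. The Zbtb16 call was lost in 5 of the 6 fits without 1 library and after median-of-ratios scaling (adjusted p = 0.195). The same scaling moved the split of all genes from 994 higher and 775 lower to 760 and 1055 between 8.5 and 14.5 dpp, from 1687 and 2444 to 1967 and 1882 by 24.5 dpp, from 711 and 135 to 946 and 34 by 36.5 dpp, and from 318 and 549 to 629 and 91 by 53.5 dpp.

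Against the age-matched testes, few differences in these genes were detected at D6, where 14.5 dpp held 2 libraries, and nearly all of the genes differed by D22. At D6 against 14.5 dpp, none of the 8 genes tested was called by limma, and 2 of them, Zbtb16 (-0.58, adjusted p = 0.0384) and Etv5 (0.58, adjusted p = 0.0403), passed on the adjusted p alone. Of all 11309 genes tested, 7.94% were called there and 1755 passed on the adjusted p alone. At an unadjusted p under 0.05 there were 5 of the 8 members, with no share of all genes to set beside them. At D16, Gfra1, Ret, Nanos2 and Gdnf were higher and Id4 was lower, of 8 tested, where 43.6% of all genes were called. At D22 and at D28, all 6 genes that passed the filter in both groups were called, with Gfra1, Ret, Zbtb16, Etv5 and Gdnf higher and Id4 lower, where 65.0% and 70.3% of all genes were called and 42.1% and 46.7% were called higher. Nanos2 (1.56 and 1.55) and Lin28a were also called higher, but passed only through the explants, with in vivo medians of 0.331 and 0.244 FPKM for Nanos2. The median log2 difference over all genes was 0.51 at D22 and 0.64 at D28. The share of called genes was so large in these comparisons that a call alone says little about a single gene, and the size of the difference is the more informative value.

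That shift of the median was removed by scaling each library by the median of ratios, which brought the median of all genes to -0.03 at D22 and -0.06 at D28. After it, Gdnf was still 1.90 higher at D22 and 2.24 higher at D28, Ret 1.82 and 1.37, Gfra1 1.63 and 0.73, Nanos2 1.22 and 1.18, and Zbtb16 0.90 and 1.11. Lin28a then missed the threshold at both times (adjusted p = 0.299 and 0.061), and Etv5 (0.45 and 0.39) and, at D28, Gfra1 fell under the 2-fold threshold. The direction of the 8 genes did not change under this scaling. The split of all called genes did: 5701 were higher and 2884 lower at D28 as deposited, and 3665 were higher and 4277 lower after scaling, with 5104 and 2773 against 3425 and 3876 at D22.

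Set against the tissue from which the explants were cut, few of the genes were called. Id4 was higher than at 8.5 dpp at D6 (1.35 ± 0.14, adjusted p = 0.000409) and D28 (2.26 ± 0.16, adjusted p = 6.6e-05), the 1 call at each time among the 8 genes that passed the filter in both groups, where 16.3% and 23.6% of all genes were called. Lhx1, which passed only through 8.5 dpp, was called lower at both times. Median-of-ratios scaling kept these calls and moved the split of all genes at D6 from 1109 higher and 717 lower to 915 and 943. At D28, Ret (0.57 ± 0.12, adjusted p = 0.00743), Gdnf (0.54 ± 0.14, adjusted p = 0.0147) and Zbtb16 (0.51 ± 0.12, adjusted p = 0.0111) had higher values than at 8.5 dpp with ratios of medians of 1.49, 1.43 and 1.65. Relative to the Sertoli markers all 3 were lower by value, at -0.47 (adjusted p = 0.0915), -0.53 (adjusted p = 0.0423) and -0.43 (adjusted p = 0.0959). For Gfra1 the difference was 0.00 with a 95% interval of -0.27 to 0.28, and on the Sertoli scale it was -0.98 and called lower. The median over all genes on that scale was -0.95, with 287 genes called higher and 7110 lower. Gfra1 was thus near that median, and Ret, Gdnf and Zbtb16 were above it. Compared with 14.5 dpp, Id4 was higher and Lin28a lower at all 3 later culture times, of 8 genes tested, where 11.9%, 12.9% and 13.6% of all genes were called. The comparisons at D16, D22 and D28 share the 14.5 dpp testes. Within culture, Id4 (0.91 ± 0.18, adjusted p = 0.0227) and Nanos2 rose from D6 to D28, where 4.69% of all genes were called. The Id4 call was lost in 4 of the 6 fits that left out 1 library. Gdnf was 1.69 times as high by medians over the same span (adjusted p = 0.0246), under the threshold. Between D16 and D28 the course of 6 of the 8 genes tested differed from that of the testis between 24.5 and 36.5 dpp (interaction term, adjusted p alone), where 68.2% of all genes did.

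**Figure D2:**
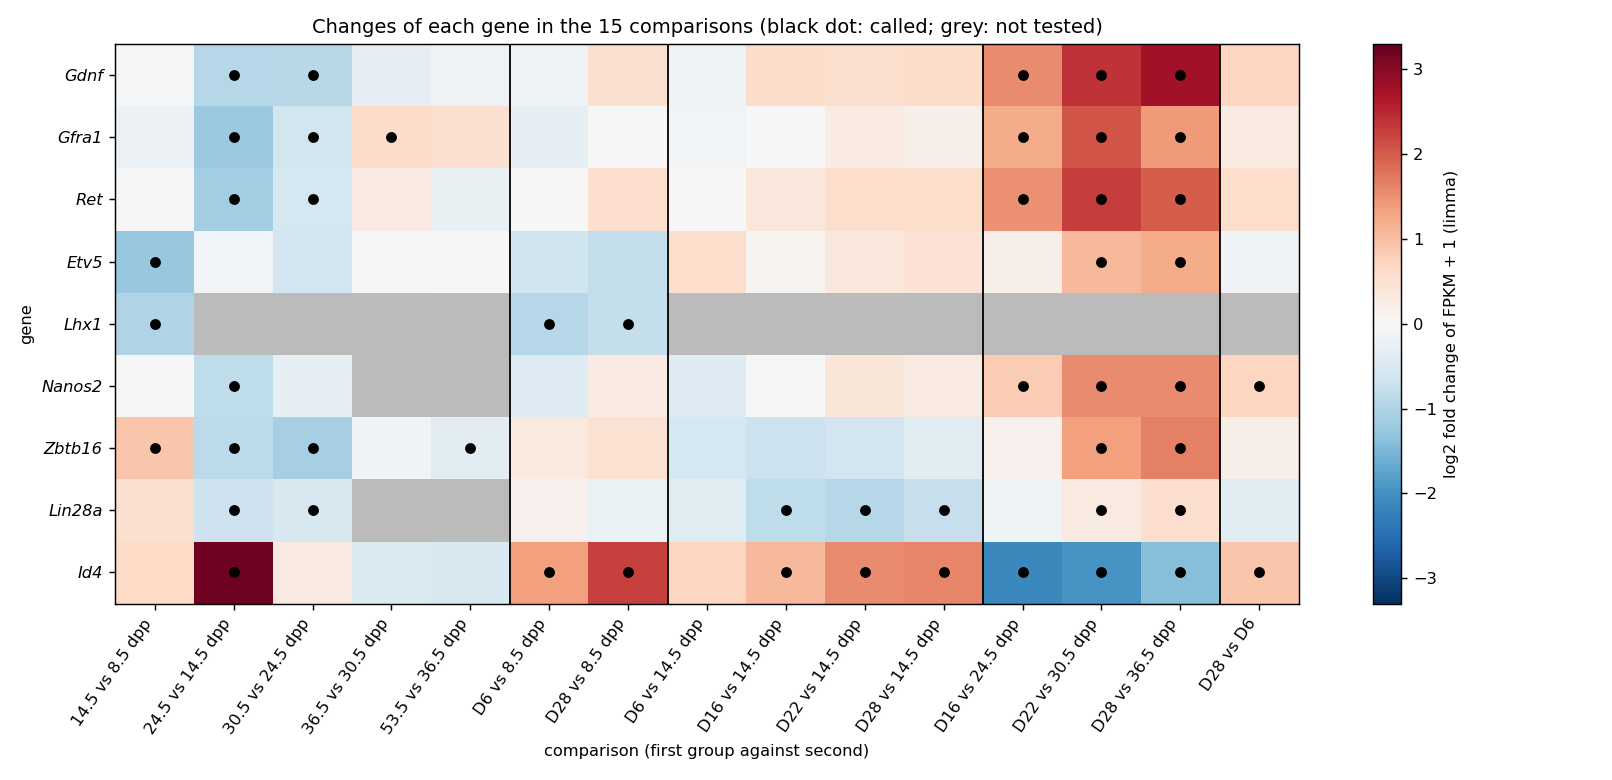
Difference of log2(FPKM + 1) for the 9 genes (rows) in the 15 comparisons (columns, first group against second), in colour from blue (lower) to red (higher), with a black dot where the gene was called and grey where it was not tested. The darkest red cells of the age-matched block are Gdnf at D22 (2.38) and D28 (2.77), and Id4 is blue in that block.

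The levels were also read relative to Sertoli cells, a source of the ligand. Sertoli cells stop dividing before puberty while germ cells multiply around them, so the geometric mean of Sox9, Wt1, Fshr and Cldn11 was used as a second scale. This mean was 73.4 ± 1.05 FPKM (SD, n = 2) at 14.5 dpp, 31.2 ± 7.84 FPKM at 24.5 dpp, 10.4 ± 0.38 FPKM at 30.5 dpp, 8.01 ± 0.81 FPKM at 36.5 dpp and 6.03 ± 0.19 FPKM at 53.5 dpp, and lay between 64.7 and 87.6 FPKM in the 4 explant groups. At 8.5 dpp it was 37.3 ± 10.3 FPKM, with Cldn11 ranging from 25.0 to 130 FPKM between libraries, and Cldn11 was at 430 ± 33.4 FPKM at 14.5 dpp, so that the 8.5 dpp values are the least certain on this scale.

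Per 100 FPKM of the Sertoli markers, Gdnf was 17.4 ± 3.63 at 8.5 dpp, 8.04 ± 0.99 at 14.5 dpp, 8.49 ± 0.68 at 24.5 dpp, 8.72 ± 2.62 at 30.5 dpp, 7.04 ± 3.38 at 36.5 dpp and 6.15 ± 1.02 at 53.5 dpp. Zbtb16 was 8.48 ± 2.15, 8.89 ± 0.10, 10.2 ± 1.15, 8.88 ± 1.36, 9.89 ± 2.37 and 6.25 ± 1.97 at the same ages, and Lin28a was 2.98 ± 0.75, 2.70 ± 0.10, 2.71 ± 0.23, 2.55 ± 0.43, 2.66 ± 0.84 and 1.33 ± 0.32. Between 8.5 and 14.5 dpp, Gfra1 (-0.97, adjusted p = 0.0175) and Gdnf (-0.87, adjusted p = 0.0337) were called lower on this scale. Of all 11253 genes tested at that step, 140 were then called higher and 4623 lower. The median over all genes was -0.73, near the values of these members. On this scale, none of the 6 genes that fell between 14.5 and 24.5 dpp was called, and their differences lay between -0.26 and 0.14 on the log2 scale, whereas Id4 was still called higher (4.22). Of all 11589 genes tested there, 5815 were called higher and 239 lower. The median over all genes was 0.84, so the 6 genes stayed below the median gene. Gfra1 reached 20.1 ± 3.89 at 36.5 dpp and 46.0 ± 12.0 at 53.5 dpp, from 6.81 ± 0.28 at 30.5 dpp, so the late return of the co-receptor was larger on this scale than in FPKM.

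In the explants, Gdnf per 100 FPKM of the Sertoli markers was 8.42 ± 1.13 at D6, 11.8 ± 1.50 at D16, and from 10.2 ± 0.24 (D22) to 10.9 ± 1.21 (D28) later. Against age-matched testes on this scale, Gdnf differed by 0.20 at D22 (adjusted p = 0.304) and 0.53 at D28 (adjusted p = 0.0937). At D28 no gene was called higher and 5 were called lower, where 377 of all genes were higher and 9326 lower, and Gfra1 (-1.22, adjusted p = 0.000125), Ret (-0.54), Zbtb16 (-0.60), Etv5 (-1.88), Lin28a (-0.53) and Id4 (-4.72) were negative, with Nanos2 at -0.03 (adjusted p = 0.829). The direction of Gfra1, Ret, Zbtb16, Etv5, Nanos2 and Lin28a at D28 therefore depends on whether levels are read per total RNA or per Sertoli marker RNA. Against 14.5 dpp, the differences at D28 kept their sign on this scale for Lin28a (-0.54), Id4 (1.22), Zbtb16 (-0.50), Ret (0.29), Gdnf (0.33), Etv5 (0.21) and Nanos2 (0.08), and only Gfra1 turned, from 0.20 to -0.0077.

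**Figure D3:**
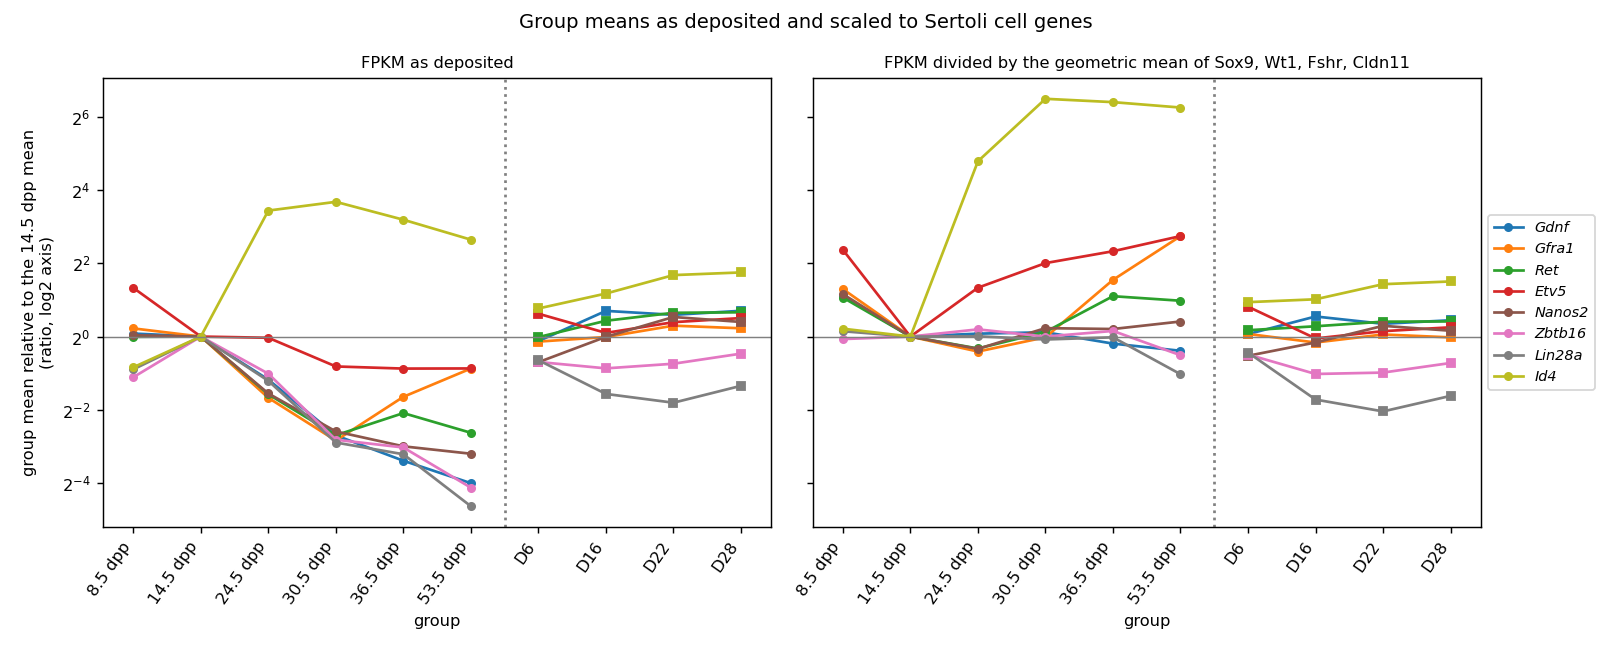
Group means of 8 genes divided by their 14.5 dpp mean (log2 axis), from FPKM as deposited (left) and after division by the geometric mean of 4 Sertoli markers (right); circles are in vivo ages, squares after the dotted line are culture times, and Lhx1 is left out because its 14.5 dpp mean is near 0. The spread of falling lines on the left lies close to 1 between 14.5 and 30.5 dpp on the right for Gdnf, Zbtb16 and Lin28a, and Id4 rises on both. With the division, the median log2 change of all genes was 0.84 from 14.5 to 24.5 dpp and 0.92 from 24.5 to 30.5 dpp.

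Further genes of the pathway were followed as lists. In the GDNF family, of 8 listed genes (Artn, Nrtn, Pspn, Gfra2, Gfra3, Gfra4, Ncam1 and Sdc3), 5 were called lower at 24.5 than at 14.5 dpp and none higher, where 21.1% of all genes were called lower. Artn and Gfra4 were among the 5 and passed the filter only through 14.5 dpp. The largest falls were in Sdc3 (-2.63 ± 0.18, adjusted p = 0.000359), a heparan sulphate proteoglycan that can bind GDNF, Gfra2 (-2.05 ± 0.24, adjusted p = 0.00188), the co-receptor for neurturin, and Gfra4 (-1.44 ± 0.31, adjusted p = 0.0112), the co-receptor for persephin. Gfra2 had already fallen between 8.5 and 14.5 dpp, from 47.7 ± 1.85 to 8.05 ± 3.16 FPKM. Gfra4 went the other way in culture: 3.36 ± 2.21 FPKM at 14.5 dpp, 4.70 ± 0.56 FPKM at D6, and 13.3 ± 2.10, 11.1 ± 1.16 and 17.3 ± 1.67 FPKM at D16, D22 and D28. It was called higher than 14.5 dpp at these 3 times (at D28 2.16 ± 0.26, adjusted p of the F test = 0.00133), and Gfra3, the artemin co-receptor, was called lower (-1.32 ± 0.11, adjusted p of the F test = 0.000155) but passed the filter only through 14.5 dpp. Gfra4 also rose within culture, by 1.68 ± 0.12 from D6 to D28 (adjusted p = 0.00129).

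Genes of the signalling downstream of GDNF and FGF, and targets of it, were higher in explants than in the 14.5 dpp testis for a part of the list. Of 11 listed (Bcl6b, Pou3f1, Etv4, Spry2, Spry4, Dusp6, Mycn, Ccnd2, Cxcr4, Fyn and Yes1), 6 were higher and none lower in explants of D16 than at 14.5 dpp, with the same counts for D22 and for D28, where 11.9%, 12.9% and 13.6% of all genes were called, and with a median log2 difference of 1.06 at D28 against -0.08 over all genes. Against the 8.5 dpp tissue of origin, 1 was higher and 1 lower at D6 and 2 were higher and 2 lower at D28, with medians of -0.34 and -0.16. Of all genes, 16.3% and 23.6% were called in these comparisons. The summed level of the 11 genes was 406 ± 11.0 FPKM at 8.5 dpp, 180 ± 26.7 FPKM at 14.5 dpp and 240 ± 9.74 FPKM at D28. At D28 the largest differences were in Cxcr4 (2.55 ± 0.26, adjusted p of the F test = 0.000306), the chemokine receptor of stem cells and other cells, Pou3f1 (1.51 ± 0.20, adjusted p of the F test = 0.00194), a POU factor, and Spry4 (1.44 ± 0.14, adjusted p of the F test = 0.00035), a feedback inhibitor of receptor tyrosine kinases. Cxcr4 was 9.24 ± 1.25 FPKM at 14.5 dpp and 50.6 ± 2.20 FPKM at D6. The summed level of the 3 markers of endothelium, which is known to express Cxcr4, was 23.1 to 29.3 FPKM at 14.5 dpp and 61.8 to 70.7 FPKM at D6, and that of the 3 macrophage markers was 4.37 to 5.09 and 9.60 to 13.0 FPKM; their part in the Cxcr4 level was not tested. In vivo, 5 of the 11 fell between 8.5 and 14.5 dpp, where 15.7% of all 11253 genes were called and 775 were called lower. Ccnd2 (-1.86 ± 0.19, adjusted p = 0.00409), Etv4 (-1.46 ± 0.11, adjusted p = 0.00287) and Bcl6b (-1.45 ± 0.13, adjusted p = 0.00384) fell most, at the same step as Etv5.

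Among 13 other genes of undifferentiated spermatogonia, of the 11 tested between 14.5 and 24.5 dpp, 6 were called lower, where 21.1% of all genes were, and 2 of these (Pou5f1 and Shisa6) passed the filter only through 14.5 dpp. The falls were led by the integrin Itga6 (-1.78 ± 0.42, adjusted p = 0.0148), the forkhead factor Foxo1 (-1.09 ± 0.22, adjusted p = 0.0086) and Piwil4 (-1.0 ± 0.15, adjusted p = 0.00355), and 1 gene rose (Epcam, 0.92 ± 0.19, adjusted p = 0.00897). Foxo1 was 11.7 ± 0.96 FPKM at 8.5 dpp, 23.7 ± 1.05 FPKM at 14.5 dpp and 1.21 ± 0.30 FPKM at 53.5 dpp, a group mean course that ran close to that of Zbtb16. At D28, 6 of the 7 genes that passed the filter in both groups were higher than at 36.5 dpp and none lower, where 46.7% of all genes were called higher. Against 14.5 dpp, where 13.6% of all genes were called, 2 of the 10 genes that passed in both groups were higher (Itga6, 1.12 ± 0.23, and Tspan8, 0.99 ± 0.31). A further gene, which passed only through 14.5 dpp, was lower (Shisa6, -0.44 ± 0.10). The markers of differentiating spermatogonia (Kit, Sohlh1, Sohlh2 and Dmrtb1) summed to 83.9 to 112 FPKM at 14.5 dpp and 38.6 to 48.0 FPKM at D28. At D28, 2 of the 4 were called lower, where 691 of all 11517 genes were called lower. Of the 4, Sohlh2 is on the list that the study chose on these samples, so its direction is not independent evidence.

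Of 12 genes for niche factors and their receptors, 6 of the 9 that passed the filter in both groups fell between 14.5 and 24.5 dpp, where 21.1% of all genes were called lower, led by Fgfr1 (-2.37 ± 0.36, adjusted p = 0.00376), Cxcl12 (-1.33 ± 0.23, adjusted p = 0.00567) and Fgfr3 (-1.19 ± 0.20, adjusted p = 0.0051). Compared with 14.5 dpp, the D28 explants were higher in Cxcl12 (1.3 ± 0.20, adjusted p of the F test = 0.00394), the ligand of CXCR4, and in Fgfr3 (0.99 ± 0.12, adjusted p of the F test = 0.000651), and none of the list was lower. Of all 11517 genes tested there, 879 were called higher and 691 lower. The markers of peritubular myoid cells, the other cells that make GDNF, summed to 195 to 329 FPKM at 14.5 dpp and 44.4 to 74.9 FPKM at D28, where all 3 were called lower; the Leydig cell markers summed to 99.6 to 175 and 21.6 to 34.2 FPKM. Gdnf was thus higher at D28 than at 14.5 dpp by value while the myoid markers were lower. The part of either cell type that makes GDNF was not tested. Among the Leydig cell markers, Insl3, Cyp11a1 and Hsd3b1 are on the list that the study chose on these samples. Their directions are not independent evidence.

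**Figure D4:**
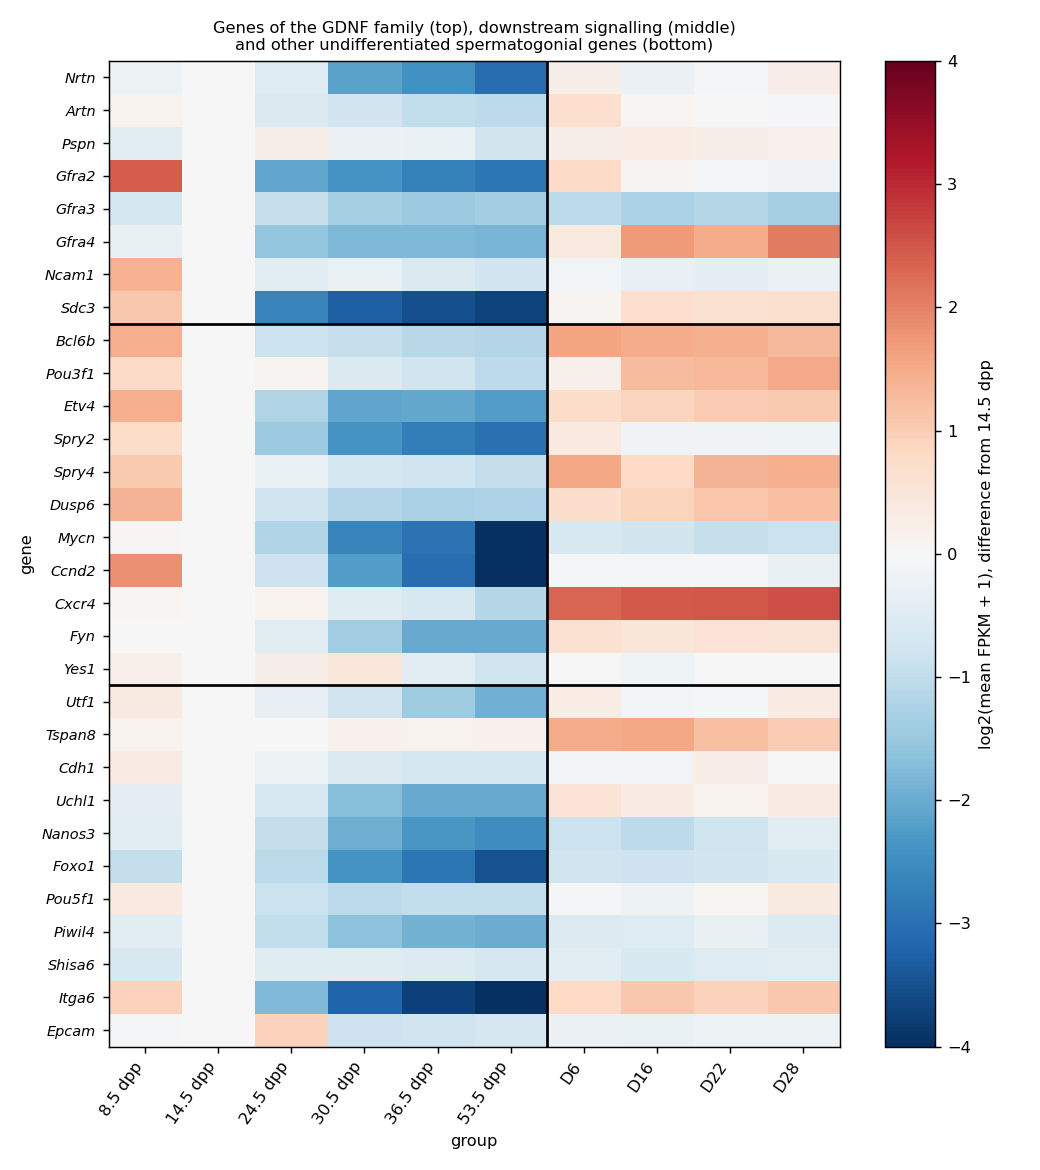
log2(mean FPKM + 1) of 30 genes, shown as the difference from 14.5 dpp (colour, blue lower and red higher, ends at ±4), in the 6 in vivo ages and, right of the vertical line, the 4 culture times; horizontal lines separate the GDNF family, downstream signalling and other undifferentiated spermatogonial genes. Older testes are blue in most genes, and the explants are red in Gfra4, Cxcr4, Bcl6b, Pou3f1, Spry4, Dusp6 and Etv4.

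Across the 10 group means, which share the libraries of each group and the same scaling, Ret followed Gdnf (Pearson r of log2 values = 0.977) and Nanos2 (0.974) most closely among the members, and Gfra1 followed Ret (0.910). Zbtb16 was closest to Gdnf (0.903) and Lin28a (0.887), and Id4 was negatively related to each of the others, from -0.172 with Lhx1 to -0.840 with Gfra1. Such values describe the course over 10 points and carry no test. Over all genes, those most like Zbtb16 were Camkk1 (0.998), Foxo1 (0.991) and Trim71 (0.991), and those most like Gdnf were Patj (0.997), Grb14 (0.996) and Pla2g15 (0.996). Genes above 0.9 numbered 3335 for Gdnf, 2745 for Zbtb16, 2345 for Ret, 1739 for Nanos2, 839 for Etv5 and 229 for Lin28a. High values between members are therefore not particular to them. Lin28a was most like Cabin1, Homer2 and Syt9, Ret was most like Scara3, Gpx2 and Abhd14a, Nanos2 was most like Klhl5, Cryab and Kcnk13, and Etv5 was most like Tent5a, Eef1akmt1 and Rps14. Gfra1 had 151 genes above 0.9, Nckipsd and Nceh1 among the closest, Id4 had 175, led by Celsr3, Corin and Slc25a38, and Lhx1 had 3, namely Tmem26, Dmgdh and Hspb3.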

How the data were processed

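RNA was sequenced from poly(A)-selected, strand-specific libraries of in vivo testes and explant pools. Per the study's methods and the labels, the authors demultiplexed with bcl2fastq 2.17.1.14, aligned 50-base reads to rn6 with STAR 2.5.2a and assembled transcripts with StringTie, and deposited 1 gene-level table of FPKM values per Entrez gene. Read counts were not used here, so depth is unknown and no counting error is given. Of 17322 identifiers, 17172 matched the RefSeq table (GRCr8), from which symbols and promoter windows were taken; the coordinates are not those of rn6.

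Values were tested with limma 3.58.1 in R 4.3.3 on log2(FPKM + 1), fitting only the groups compared, with Benjamini-Hochberg adjustment over all genes whose median reached 0.5 FPKM in any group compared. D16, D22 and D28 were compared with 14.5 dpp in 1 fit with an F test. Calls needed an adjusted p of at most 0.05 and a ratio of medians of at least 2, thresholds taken from the study. The scripts were tested on simulated data. Libraries of a group correlated at 0.965 to 0.985. The labels do not say that same-numbered libraries share an animal or a day, so no pairing was used. Deviations of same-numbered libraries correlated at 0.092 or less in the lowest pair of each comparison. The highest single value was 0.25, for replicate 2 from D6 to D28, where replicate 1 was at -0.13. Comparisons with 14.5 dpp had only 2 pairs, too few for this check to decide. Alternatives were other pseudocounts (0.1), filters (none, 1 FPKM), no fold threshold, median-of-ratios and Sertoli marker scaling, a variance trend, 1 fit of all groups, a replicate block, and each library left out.

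The members and gene lists were chosen with earlier results of these data known. The genes named were all members, at most the 3 called genes with the largest change per direction from each list and comparison, and the 3 genes most like each member; 2 genes of these sets are not reported here. The comparison of the change in culture with the change in vivo was chosen after seeing the data.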

Additional observations from a re-analysis of the deposited data

Results flagged for a closer look

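The change from D16 to D28 was set against the change from 24.5 to 36.5 dpp over the same ages, in 1 limma fit of the 4 groups and chosen after seeing the data, and 6 genes differed between culture and testis by this interaction term. Zbtb16 changed by 0.32 in culture and by -1.21 in vivo, a difference of 1.53 ± 0.26 (log2, SE; adjusted p = 0.000295). For Gdnf the changes were 0.00 and -1.22 (difference 1.22 ± 0.24, adjusted p = 0.000843), and for Etv5 they were 0.37 and -0.67 (difference 1.05 ± 0.30, adjusted p = 0.00952). Nanos2 changed by 0.30 and -0.42 (difference 0.72 ± 0.20, adjusted p = 0.00868), Lin28a by 0.09 and -0.60 (difference 0.69 ± 0.18, adjusted p = 0.00505) and Ret by 0.20 and -0.29 (difference 0.49 ± 0.18, adjusted p = 0.0332). Gfra1 (0.19 ± 0.18, adjusted p = 0.365) and Id4 (0.73 ± 0.31, adjusted p = 0.0567) missed the threshold. On the adjusted p alone, 68.2% of all 12420 genes tested passed the same term, so 6 of 8 members is close to the share of all genes.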

How the results depend on the processing

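The counts here are over all members tested, with those included that passed the filter through 1 group only. Of 237 such counts recomputed under the alternatives, 197 stayed within 1.5 times the reported count. Scaling to the Sertoli markers gave 1 in place of 7 called between 14.5 and 24.5 dpp, 1 in place of 5 between 24.5 and 30.5 dpp, 4 in place of 2 at D6 and 5 in place of 2 at D28 against 8.5 dpp, 4 in place of 8 at D22 against 30.5 dpp, 5 in place of 8 at D28 against 36.5 dpp, and 1 in place of 2 from D6 to D28. Over all genes the calls rose from 4131 to 6054 by 24.5 dpp and from 4479 to 5367 by 30.5 dpp. Against 8.5 dpp they rose from 1826 to 4439 at D6 and from 2681 to 7397 at D28. Against age-matched testes they rose from 7877 to 9588 at D22 and from 8585 to 9703 at D28, and within culture from 526 to 938. The 1 member called from 24.5 to 30.5 dpp was Id4, higher, and those called against age-matched testes at D22 and D28 were all lower. The Sertoli scaling changed the sign of 39 of 119 single gene values, 21 of them called on neither scale. The 18 others were called on at least 1 scale: from 14.5 to 24.5 dpp Zbtb16 to 0.14, Lin28a to 0.0029 and Gdnf to 0.059; from 24.5 to 30.5 dpp Gfra1 to 0.26, Ret to 0.30 and Gdnf to 0.0044; at D28 against 8.5 dpp Gfra1 to -0.98; at D16 against 24.5 dpp Zbtb16 to -0.83 and Etv5 to -1.06; at D22 against 30.5 dpp Zbtb16 to -0.65, Etv5 to -1.66 and Lin28a to -0.59; and at D28 against 36.5 dpp Gfra1 to -1.22, Ret to -0.54, Zbtb16 to -0.60, Etv5 to -1.88, Nanos2 to -0.028 and Lin28a to -0.53. Median-of-ratios scaling, the block and leaving out 1 library changed the sign of 6 of 119, 5 of 119 and 32 of 807 values, none of them called, and the other alternatives changed none. The Sertoli scale divides by markers that were themselves lower in older testes. Median-of-ratios scaling gave 1 in place of 5 from 24.5 to 30.5 dpp and 5 in place of 8 at D28 against 36.5 dpp. The calls over all genes there went from 4479 to 2877 and from 8585 to 7942. Without the 2-fold threshold, which admits smaller differences by construction, the counts were 2 from 30.5 to 36.5 dpp, 3 from 36.5 to 53.5 dpp, 5 and 6 at D6 and D28 against 8.5 dpp, 2 at D6 and 6 at each of D16, D22 and D28 against 14.5 dpp, and 4 from D6 to D28. In the same order, the counts over all genes were then 3252, 5124, 5319 and 5985, 1755 and 3867, and 1452. With no filter on low values, or with a median of at least 1 FPKM, Zbtb16 was not called from 36.5 to 53.5 dpp, leaving 0. Of all genes, 859 and 714 were called there. With 1 library left out at a time, the counts ranged from 3 to 7 (14.5 to 24.5 dpp, lowest without the first 14.5 dpp testis), 0 to 1 (30.5 to 36.5 dpp and 36.5 to 53.5 dpp), 1 to 2 (D16 against 14.5 dpp) and 0 to 1 (D6 to D28), where leaving out a library also removes a degree of freedom. In these comparisons the calls over all genes ranged from 2585 to 4365, 8 to 1192, 643 to 1027, 1187 to 1406 and 298 to 592. With the replicate number as a block, 0 members were called from 36.5 to 53.5 dpp and 1 from D6 to D28. Of all genes, 735 and 413 were called there. The block changed no other member's call, and the numbers mark no stated pairing. Where no construction is given, the cause was not tested.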
